A study of Mus musculus with 6 samples.

Results

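The genes described here are the fibroblast growth factor (FGF) family, its receptors, and the genes that feed back on or run beside its main signalling route, the ERK kinase cascade. They were chosen by name and not by any measured value: all mm10 coding genes called Fgf or Fgfr plus a number, and 18 listed genes (Spry1, Spry2, Spry4, Spred1 to Spred3, Dusp4 to Dusp6, Etv1, Etv4, Etv5, Pdgfa to Pdgfd, Egfr and Hbegf). That gave 44 of 21887 coding genes, of which 22 are Fgf genes and 4 are Fgfr genes. A peak belonged to the gene whose end was nearest to the peak's summit, if that end lay within 100 kb. Peaks with a summit within 1 kb of a gene's start or end are called gene-end peaks, and those farther away distal peaks.

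The data are ATAC-seq peak lists, in which a peak marks a stretch of open DNA where a transposase could insert sequencing adapters, from mouse brown pre-adipocytes, the precursors of brown fat cells. The day 1 libraries (3) came from cells 1 day into brown adipocyte differentiation, and the day 0 libraries (3) from cells labelled WT before differentiation. Both groups carry the cell line label BAT, no genotype is stated for day 1, and neither the differentiation medium nor the origin of the replicates is given. The labels of these 6 libraries name no gene deletion, although the series is titled for RUNX1 and RUNX2 knockouts in adipocytes. The p-values below measure only library-to-library spread within a day, and part or all of that may be technical.

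FGFs and the related growth factors bind receptor tyrosine kinases at the cell surface, which switch on the Ras, Raf, MEK and ERK kinases in turn. ERK signalling induces its own brakes, among them the Sprouty and Spred inhibitors and the MAP kinase phosphatases Dusp4, Dusp5 and Dusp6, and the ETS transcription factors Etv1, Etv4 and Etv5, so that these genes are widely used as readouts of the pathway. In fat tissue, FGF and PDGF ligands act on the precursor cells, and FGF21 is known as a hormone of brown fat.

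Depth moved with the day. The day 1 libraries held 4919755, 5603667 and 7302457 fragments and 20069, 23274 and 12556 peaks, and the day 0 libraries 11011889, 8127635 and 9160156 fragments and 55511, 41993 and 39211 peaks. Day 1 replicate 3 had the fewest peaks in spite of the most fragments of its day, and its size factor, the typical level of its peaks in shared regions, was 0.594 relative to its fragments, against 0.821 to 1.25 in the other 5. Presence was compared both in the lists as deposited and in equal lists, where every library kept its 12556 strongest peaks by −log10 q. In an equal list a missing peak means a lower rank, not an absence of signal. Of 9 preadipocyte and mesenchymal marker genes, Pdgfrb, Ly6a, Ebf2 and Col1a1 had a gene-end peak in all 3 day 0 libraries of the deposited lists. They had one in 2, 1, 1 and 2 of the 3 day 1 libraries, in that order, while Pdgfra, Cd34, Zfp423, Dlk1 and Thy1 had none in any library. In equal lists Pdgfrb, Ly6a, Ebf2 and Col1a1 had one in 0, 1, 0 and 2 day 1 libraries and in 3, 0, 0 and 0 day 0 libraries. Of 5 adipocyte markers, 2, 3 and 3 had a gene-end peak in the deposited day 1 lists, against 1, 2 and 1 in the day 0 lists. Cidec had one in 3 of 3 libraries at day 1, against 0 of 3 at day 0, and Plin1 in 2 against 0. Fabp4 went the other way, with 2 against 3, Adipoq had 1 against 1, and Ucp1 had none. In equal lists 2, 2 and 3 of these markers had one at day 1, against 0, 0 and 0 at day 0. Immune, endothelial, myogenic and epithelial markers (12 genes) had gene-end peaks in the deposited lists at 1 gene, Kdr, at day 1. At day 0 they had them at Kdr, Cd68 and, in 1 library, 1 myogenic gene. The part of depth and of cell make-up in the results below was not tested, and in a bulk library a region open in fewer cells cannot be told apart from a region less open in every cell.

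Promoters of 4 members illustrate the kinds of peak found. The sequences are RefSeq's on GRCm38.p6, the 250 bases before an annotated start, 5′ to 3′ on the gene's strand, and capitals mark exact motif matches on either strand. Dusp6 carried the strongest gene-end peak by summit pileup in all 6 libraries (chr10:99262981-99263230, plus strand), and no searched motif matched. Etv5 (chr16:22439571-22439820, minus strand) also had a peak in all 6, and its capitals are 3 GGGCGG matches. Egfr (chr11:16751953-16752202, plus strand) holds CTTCCGG, the reverse complement of the ETS motif, and CCGCCC, the reverse complement of GGGCGG. Fgf7 (chr2:126034408-126034657, plus strand) had a peak here in the day 0 libraries and in no day 1 library, and no searched motif matched.
Dusp6: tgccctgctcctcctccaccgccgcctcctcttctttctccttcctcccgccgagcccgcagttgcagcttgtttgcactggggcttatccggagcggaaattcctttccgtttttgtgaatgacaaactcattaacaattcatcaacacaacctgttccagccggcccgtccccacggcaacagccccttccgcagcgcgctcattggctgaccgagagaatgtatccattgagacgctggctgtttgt
Etv5: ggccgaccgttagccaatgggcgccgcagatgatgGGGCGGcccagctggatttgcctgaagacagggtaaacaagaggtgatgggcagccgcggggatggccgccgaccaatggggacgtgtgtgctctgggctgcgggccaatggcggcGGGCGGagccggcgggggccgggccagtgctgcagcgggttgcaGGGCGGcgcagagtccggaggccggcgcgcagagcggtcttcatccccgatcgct
Egfr: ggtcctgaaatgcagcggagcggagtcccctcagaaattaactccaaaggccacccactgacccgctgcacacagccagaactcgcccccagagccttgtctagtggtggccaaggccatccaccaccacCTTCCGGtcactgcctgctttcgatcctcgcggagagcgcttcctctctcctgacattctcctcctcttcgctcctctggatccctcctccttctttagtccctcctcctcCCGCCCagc
Fgf7: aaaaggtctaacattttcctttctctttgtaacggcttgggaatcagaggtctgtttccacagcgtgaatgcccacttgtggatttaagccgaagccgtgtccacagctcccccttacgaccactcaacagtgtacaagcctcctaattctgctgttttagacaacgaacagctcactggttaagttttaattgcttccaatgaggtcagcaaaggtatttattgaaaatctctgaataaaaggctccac

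RefSeq's table held 42 promoters of 32 members and 32851 in all. The Sp/Klf motif GGGCGG was found in 26 of the 42, in 21 of 32 genes, against 32.7% of all promoters. The AP-1 motif TGANTCA was found in 2 (Fgf12 and Fgf13), against 6.75% of all, and the ETS motif CCGGAAG in 1 (Egfr), against 6.91% of all. The CRE motif TGACGTCA, the RUNX motif TGTGGTT, the C/EBP motif TTGCGCAA and the palindromic glucocorticoid receptor motif matched none of the 42, and 1.55%, 4.4%, 0.164% and 0.00913% of all promoters. Both strands were searched in these 250 bases only.

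Across the family, the genes fell into those with an open gene end and those without, in shares close to those of all coding genes. A gene-end peak was present in at least 1 library for 23 of 44 members, against 50.2% of all coding genes, and in all 6 libraries for 11 of 44, against 23.5%. In equal lists it was 16 of 44 in at least 1 library, against 36.6%, and 7 of 44 in all 6, against 15.4%. The 23 genes were all 12 Sprouty, Spred, phosphatase and ETS genes, 4 of 5 receptors, 4 of 5 PDGF and EGF family ligands and 3 of 22 FGF genes. The 11 with a peak in every library were 8 of those 12 and Egfr, Fgfr1 and Hbegf. Without the nearest-gene rule, Spry4 also had a peak within 1 kb of an end in all 6 libraries. Of the 12 Sprouty, Spred, phosphatase and ETS genes, 10, 12 and 10 had a gene-end peak in the day 1 libraries, against 12, 12 and 11 in the day 0 libraries. Of the 22 FGF genes, 0, 0 and 0 had one at day 1, against 3, 2 and 1 at day 0. Over all coding genes it was 34.2%, 37.0% and 27.6% at day 1 and 45.3%, 41.7% and 39.8% at day 0. The FGF count depends on the 1 kb limit and the nearest-gene rule. An Fgf18 region 1.13 kb from the gene, counted as distal, had a peak in all 6 libraries. Fgf11 had a peak within 1 kb of an end in all 6, whichever gene was nearest. For 6 members (Fgf4, Fgf13, Fgf14, Fgf17, Fgf21 and Fgf22) no peak was assigned in any library.

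**Figure D1:**
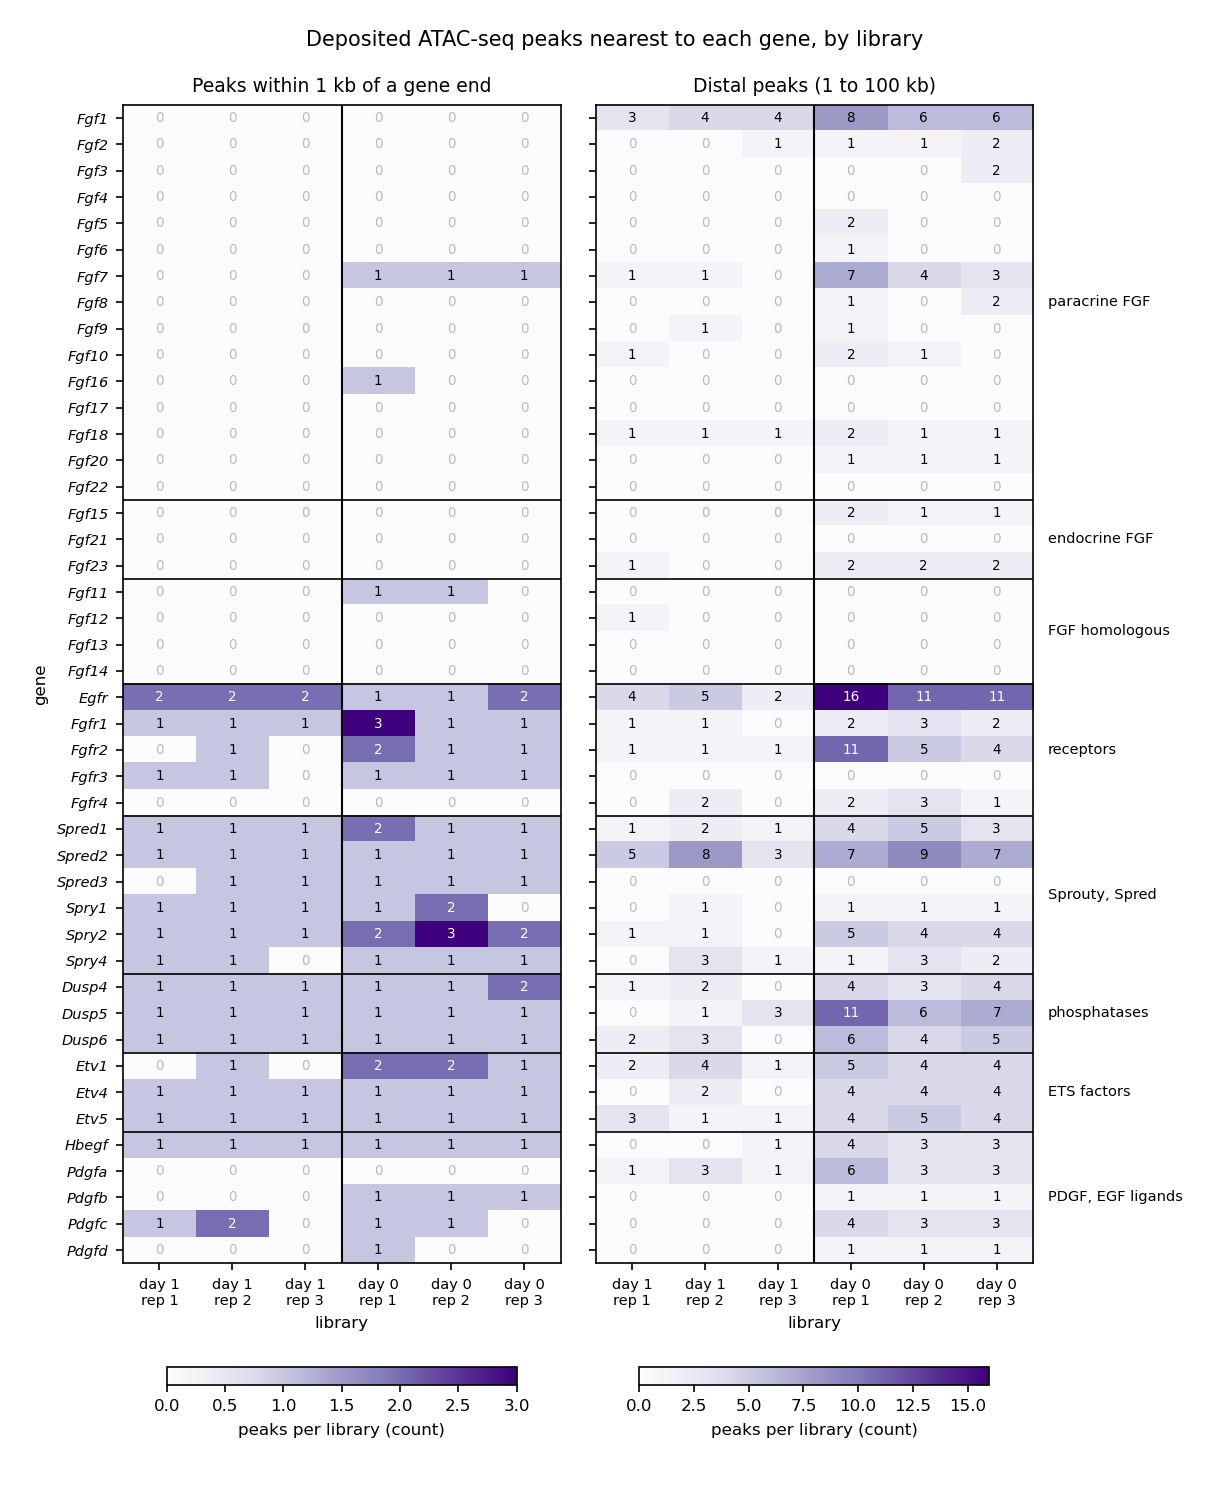
Number of deposited peaks assigned to each of the 44 genes (rows, grouped by role) in each library (columns, day 1 then day 0), at gene ends on the left and distal on the right, with darker shades for more peaks. The Sprouty, Spred, Dusp and Etv rows are mostly filled at gene ends on both days, with gaps at Etv1, Spred3, Spry4 and Spry1. The Spry4 gap comes from the nearest-gene rule, since all 6 libraries had a peak within 1 kb of an end of Spry4. Most Fgf rows are empty there, and the distal counts are highest in the day 0 libraries.

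The number of members with a gene-end peak depended on the lists. In the deposited lists it was 15, 18 and 13 in the day 1 libraries (mean 15.3 ± 2.52, SD, n = 3), against 23, 21 and 18 in the day 0 libraries (20.7 ± 2.52, SD, n = 3), ranges that met at 18. All coding genes went the same way, with a gene-end peak at 34.2%, 37.0% and 27.6% of them in the day 1 libraries, against 45.3%, 41.7% and 39.8% in the day 0 ones. In equal lists the order turned round, with 12, 15 and 13 members at day 1 (13.3 ± 1.53) and 8, 9 and 10 at day 0 (9.0 ± 1.0, SD, n = 3 each). Coding genes as a whole turned with them, at 27.4%, 29.1% and 27.6% at day 1 and 23.2%, 23.1% and 22.1% at day 0.

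Distal peaks of the 44 genes numbered 30, 47 and 21 in the day 1 lists as deposited, and 129, 98 and 94 in the day 0 lists. Distal peaks of all genes differed alike, so that the share of the 44 genes was 0.288%, 0.374% and 0.385% at day 1 and 0.354%, 0.371% and 0.384% at day 0, which overlap. Equal lists held 19, 11 and 21 in the day 1 libraries (17 ± 5.29), against 23, 24 and 28 in the day 0 libraries (25 ± 2.65, SD, n = 3 each), with no overlap between the days. As a share of all distal peaks in the equal lists this was 0.338%, 0.207% and 0.385% at day 1 and 0.372%, 0.386% and 0.437% at day 0, where the ranges did overlap.

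Peaks of all libraries that overlapped by 1 bp or more were merged into regions, 198 for the 44 genes of 68913 in the deposited lists and 74 of 23438 in the equal lists. Regions with a peak in all 3 day 0 libraries and in no day 1 library are called day 0 only, and the mirror case day 1 only. In equal lists 11 of the 74 regions were day 0 only, against 9.11% of all regions. All 11 were distal, 11 of 57 distal regions, against 12.5% of all distal regions. Day 1 only regions numbered 5 of 74, against 5.71% of all, and 2 of 57 among distal regions, against 6.46%. In the deposited lists, 41 of 198 regions were day 0 only, against 17.5% of all, and 1 of 198 was day 1 only, against 0.607% of all. Distal regions there were day 0 only in 38 of 168 cases, against 19.5%, and day 1 only in 1 of 168, against 0.702%, and gene-end regions were day 0 only in 3 of 30 cases, against 5.89%, and day 1 only in 0 of 30, against 0.173%. At gene ends 0 of 17 equal-list regions were day 0 only, against 0.791%, and 3 of 17 were day 1 only, against 4.53%. A peak in all 6 libraries was found for 18 of 198 deposited regions, against 13.3%, made up of 12 of 30 at gene ends, against 43.5%, and 6 of 168 distal ones, against 6.87%. In equal lists it was 10 of 74, against 22.8%, with 7 of 17 at gene ends, against 45.6%, and 3 of 57 distal, against 11.6%.

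The 11 day 0 only regions lay near 8 genes, of 1439 coding genes with such a region (6.57%). The phosphatases held 4 of them among 16 regions (3 near Dusp6 and 1 near Dusp5). The ETS factors held 3 among 11 regions (2 in Etv1 and 1 in Etv5), and the share over all regions was 9.11%. Sprouty and Spred genes held 1 among 20, receptors 1 among 9 and paracrine FGF ligands 0 among 10. PDGF and EGF family ligands held 1 among 5 and endocrine FGFs 1 among 3. In the deposited lists 5 of 26 phosphatase regions and 3 of 18 ETS factor regions were day 0 only, against 17.5% of all. In equal lists Dusp6 was 1 of 36 coding genes with at least 3 such regions, and Dusp6 and Etv1 were among 216 with at least 2. Their strength is given below as the summit pileup, the whole fragments covering the peak's highest point, and as scaled fragments, that pileup divided by a size factor for each library. Since the regions were chosen for ranking high at day 0 and lower at day 1, the levels describe them and carry no test.

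Etv5, a factor induced by ERK signalling, carried the strongest of them, inside the gene and 8.0 kb from its far end (chr16:22389066-22389523). In the day 1 libraries the summit pileup was 6 and 7 fragments, with no peak in replicate 3, against 90, 60 and 57 fragments in the day 0 libraries. At the day 0 level the day 1 libraries would have held 39.0, 47.8 and 29.6 fragments. Scaled, the day 1 peaks stood at 7.78 and 7.41 and the day 0 peaks at 51.1, 44.3 and 56.2. The authors' fold enrichment over local background was 4.84 and 5.59 at day 1 and 22.1, 17.8 and 19.7 at day 0. The Etv5 gene end, by contrast, was open on both days, at 38.9, 42.3 and 39.3 scaled fragments at day 1 and 52.3, 42.8 and 51.2 at day 0.

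Etv1 had 2 day 0 only regions inside the gene. The one 26.4 kb from its far end (chr12:38843721-38844259) had a single day 1 peak of 7.41 scaled fragments, in replicate 2, against 31.8, 33.2 and 32.5 in the day 0 libraries. The one 8.66 kb from its start (chr12:38788583-38788928) had 9.08 and 7.41 scaled fragments in day 1 replicates 1 and 2, none in replicate 3, against 19.3, 21.4 and 19.7 at day 0. The Etv1 gene end had a peak in 1 of 3 day 1 libraries, at 16.9 scaled fragments, and in 3 of 3 day 0 libraries, at 16.5, 16.2 and 18.7. A region 1.35 kb upstream of the Etv1 start, counted as distal, had a peak in all 6 libraries. It stood at 22.0, 21.2 and 22.2 scaled fragments at day 1 and 25.0, 26.6 and 26.6 at day 0.

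Dusp6, the cytoplasmic ERK phosphatase, is a gene of 4.26 kb whose gene-end peak had the highest summit pileup of all 44 genes on both days. By the authors' fold enrichment the Etv5 gene end was higher in some libraries, at 12.1 against 11.1 in day 1 replicate 1. Its distal day 0 only regions lay 25.9 kb upstream (chr10:99236983-99237699), 12.3 kb upstream (chr10:99250695-99251221) and 30.4 kb beyond the far end (chr10:99297695-99298058). The region beyond the far end had no day 1 peak of any strength, against 29.5, 26.6 and 25.6 scaled fragments at day 0. The region at 12.3 kb had 1 day 1 peak of 9.52 scaled fragments, against 24.4, 21.4 and 18.7 at day 0. The region at 25.9 kb had 1 day 1 peak of 6.48, against 20.5, 19.2 and 20.7 at day 0. Dusp5, the nuclear ERK phosphatase, had 1 such region 13.6 kb beyond its far end (chr19:53555104-53555725), with no day 1 peak, against 30.1, 25.1 and 35.5 scaled fragments at day 0.

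The other 4 day 0 only regions belonged to 2 ligand genes, a receptor gene and an inhibitor gene. Near Fgf23, a bone hormone that controls phosphate, the region lay 15.5 kb upstream (chr6:127056923-127057700), with no day 1 peak, against 25.0, 41.4 and 35.5 scaled fragments at day 0. Inside Egfr, the EGF receptor, it lay 64.4 kb from the start (chr11:16816288-16816894), with no day 1 peak, against 20.5, 16.2 and 17.7 at day 0. Those of Spry2 (86.5 kb away, chr14:105804844-105805895) and Pdgfd (inside the gene, chr9:6454640-6455031) also had no day 1 peak. Their day 0 levels were 21.0, 15.5 and 17.7 for Spry2 and 16.5, 17.7 and 14.8 for Pdgfd. Of the 11 regions, 6 had no day 1 peak in the deposited lists, and the other 5 had day 1 peaks of 6.48 to 9.52 scaled fragments. A region so far from a gene need not act on it, and the nearest end is only a label.

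**Figure D2:**
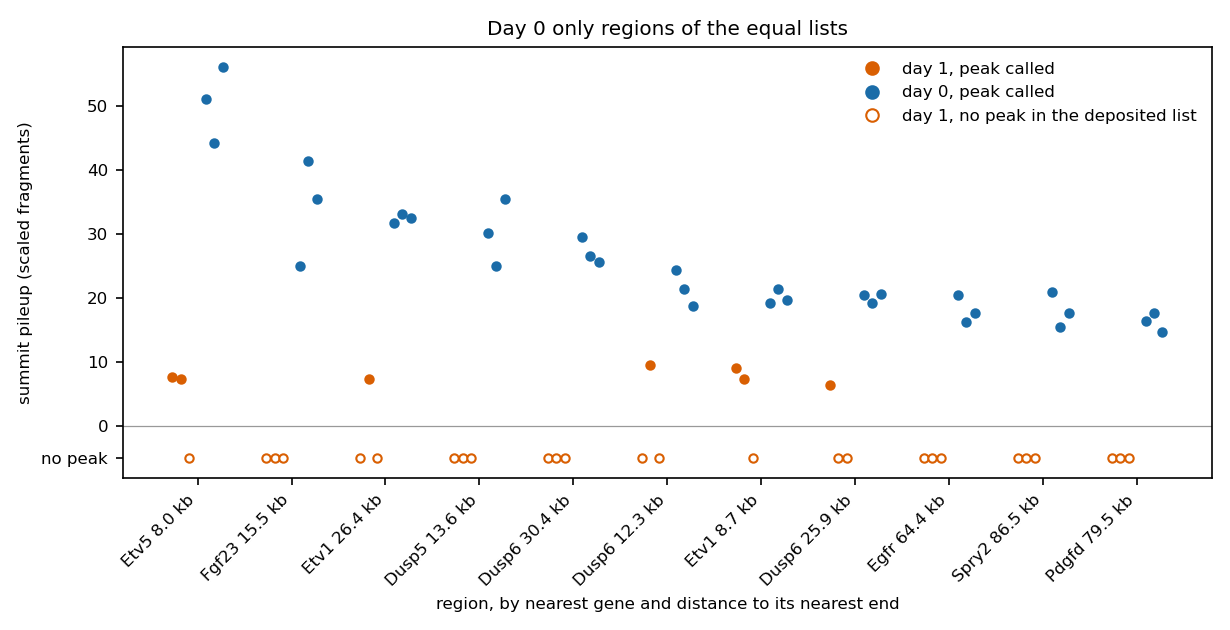
Summit pileup in scaled fragments (vertical axis) of the 11 day 0 only regions (horizontal axis, by nearest gene and distance), with day 1 in orange left of day 0 in blue. Open circles mark libraries without a deposited peak, for which no level is known. The day 0 points run from 14.8 to 56.2, and 6 regions have no day 1 point, an order that the choice of regions fixes in part.

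The 5 day 1 only regions of the equal lists were chosen in the same way. Spred2, an inhibitor of Ras to ERK signalling, held 2 of them. The one 36.9 kb inside the gene (chr11:19961144-19961471) had 25.9, 21.2 and 20.5 scaled fragments at day 1 and no peak of any strength at day 0, where its day 1 level would have given 39.7, 30.5 and 22.9 fragments. It was the only day 1 only region of these genes in the deposited lists. The other 4 had day 0 peaks of lower rank in all 3 day 0 libraries: 1 region 1.11 kb inside Spred2 and the gene ends of Egfr, Hbegf and Spry4. At the Egfr gene end, for example, levels were 14.3, 21.2 and 20.5 scaled fragments at day 1 and 14.8, 13.3 and 10.8 at day 0, which overlap. Hbegf, an EGF receptor ligand, stood at 14.3, 15.9 and 12 at day 1 and 12.5, 13.3 and 12.8 at day 0, which also overlap.

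**Figure D3:**
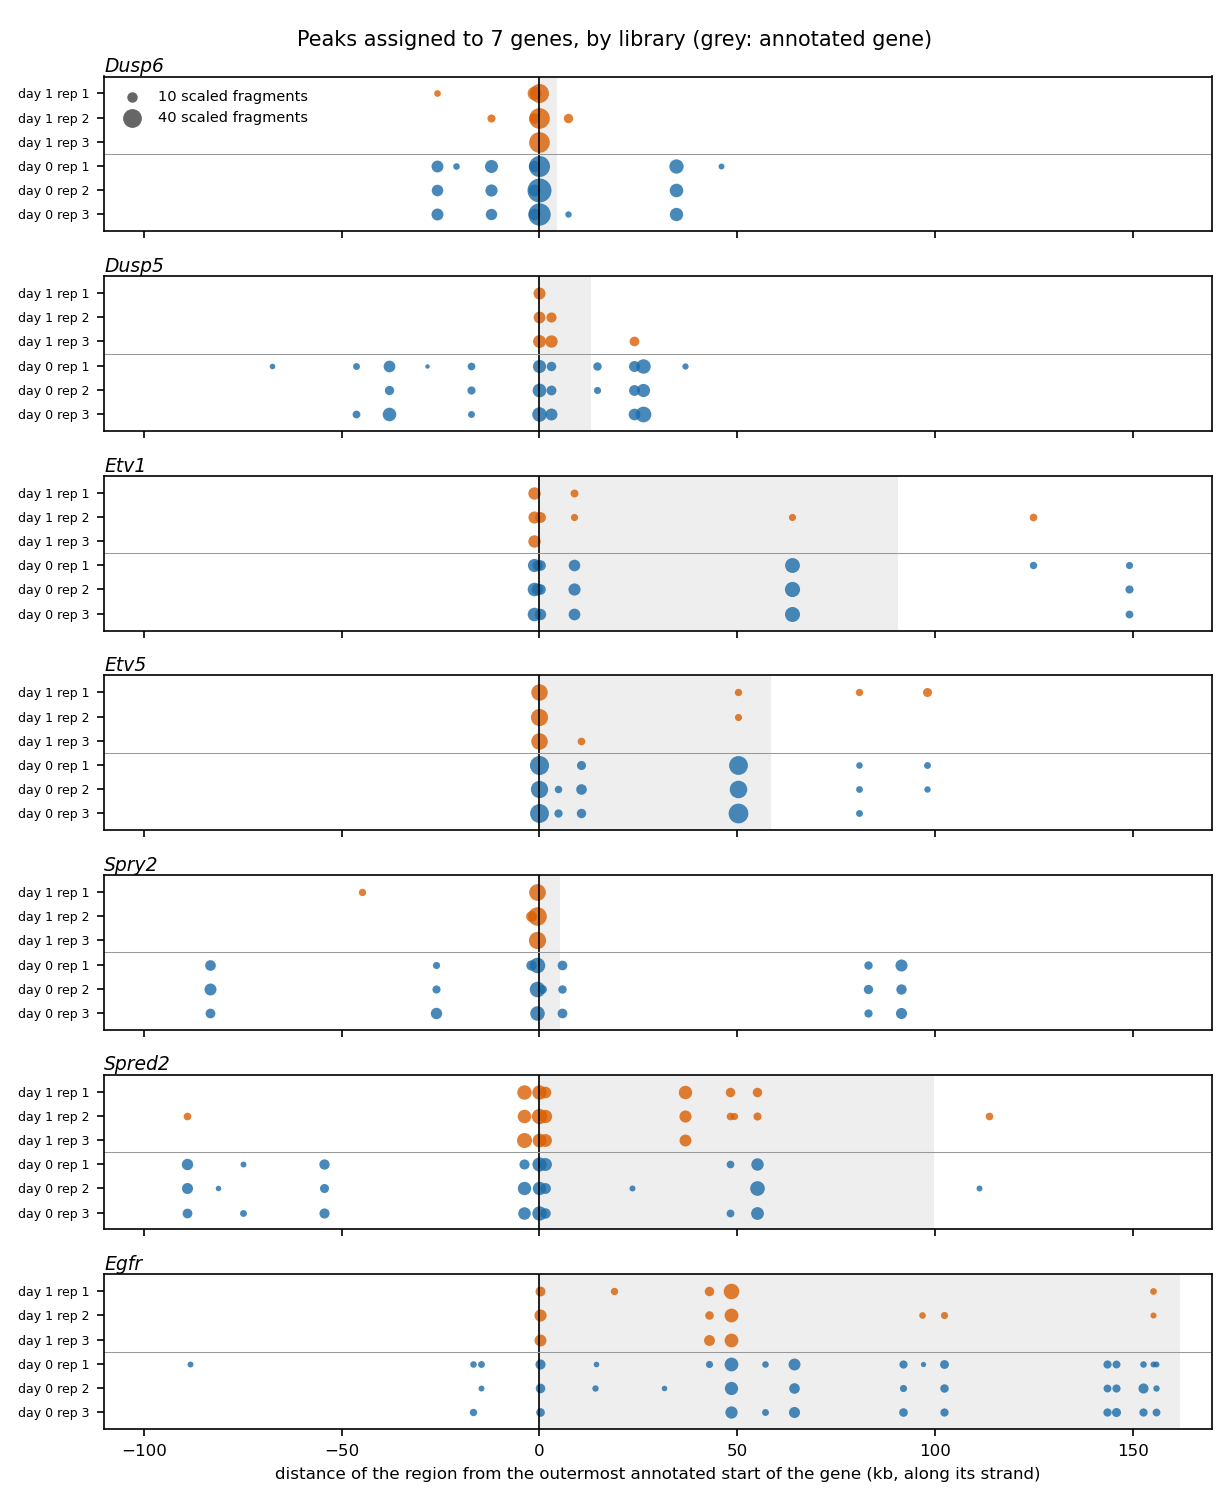
Deposited peaks around 7 genes, 1 row per library with day 1 (orange) above day 0 (blue), plotted by distance from the gene's outermost annotated start along its strand (kb), with circle area proportional to scaled fragments and the gene in grey. The peak at each start appears in nearly every row, whereas distal circles vary. The one inside Etv5 near its far end is large in the 3 day 0 rows and small or missing in the day 1 rows. The one 36.9 kb inside Spred2 appears in the day 1 rows only, and the one 48.5 kb inside Egfr in every row.

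In the deposited lists, gene-end peaks of some members were called in more day 0 than day 1 libraries, as were those of coding genes in general. A gene-end peak in at least 2 more day 0 than day 1 libraries was found for 5 of 44 members in the deposited lists (Fgf7, Fgf11, Fgfr2, Etv1 and Pdgfb), against 8.44% of coding genes. None of the 44 had one in at least 2 more day 1 libraries, against 0.69%. In equal lists the first count was 0 of 44, against 1.14%, and the second 4 of 44, against 5.71%. Fgf7, a growth factor that mesenchymal cells secrete and that acts on a form of Fgfr2, had no gene-end peak at day 1, against 7.39, 11.1 and 10.8 scaled fragments at day 0. Fgfr2 had 11.6 in day 1 replicate 2 alone, against 7.96, 8.12 and 12.8 in the day 0 libraries. Pdgfb, a ligand of the PDGF receptors, had none at day 1, against 14.2, 10.3 and 17.7 at day 0. Fgf11, an FGF relative that stays inside the cell, had none at day 1, against 7.39 and 9.60 in 2 day 0 libraries. The neighbouring Tmem102 ends 0.615 kb from the Fgf11 region, and counting every peak within 1 kb whichever gene is nearest gave Fgf11 a peak in all 6 libraries. The weakest peaks called had 4 or 5 fragments, and at the day 0 level of Fgf7 the day 1 libraries would have held 7.53, 9.23 and 5.72, so an absence at day 1 is at the edge of what this depth can show.

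Of the remaining ligands, Hbegf had a gene-end peak in all 6 libraries, Pdgfc in 2 of 3 day 1 and 2 of 3 day 0 libraries, and Pdgfd and Fgf16 in 1 day 0 library each, while the others had distal peaks at most. Fgf1, which adipocytes make when PPAR gamma is active, had the most regions of any FGF gene, 13, all distal. Its peaks numbered 3, 4 and 4 at day 1 and 8, 6 and 6 at day 0. The nearest region, 1.09 kb from the gene, had 22.0 and 22.2 scaled fragments in day 1 replicates 1 and 3 and none in replicate 2, against 24.4, 24.4 and 25.6 at day 0. Fgf15, the mouse counterpart of the gut hormone FGF19, had 2 distal regions, with no peak at day 1 and 2, 1 and 1 at day 0. Fgf12 had 1 peak in a single day 1 library. Pdgfa, a mitogen of fat cell precursors, had 9 distal regions, with 1, 3 and 1 peaks at day 1 and 6, 3 and 3 at day 0. One of them counts as distal because it lies 5.88 kb inside the outer end of the gene, but it covers an annotated start within the gene, with 13, 11.6 and 15.4 scaled fragments at day 1, against 11.4 in 1 day 0 library. Egfr had the most of all 44 genes, 21 regions, with 4, 5 and 2 distal peaks at day 1 and 16, 11 and 11 at day 0. Spred2 followed with 14 regions, and 5, 8 and 3 distal peaks at day 1 against 7, 9 and 7 at day 0. Dusp5 had 11 regions, and 0, 1 and 3 distal peaks at day 1 against 11, 6 and 7 at day 0. Its ranges did not overlap while those of Spred2 did. These are counts in the deposited lists, where distal peaks of all genes were apart too, at 5458 to 12553 at day 1 and 24491 to 36485 at day 0. In equal lists Dusp5 had 0, 0 and 3 distal peaks at day 1 against 2, 1 and 2 at day 0. Egfr had 2, 1 and 2 there against 2, 2 and 2, and Fgf1 2, 0 and 4 against 1, 1 and 2, all of which overlap.

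The size of the signal could be tested where all 6 libraries had a peak, which was so for 9136 regions, 18 of them near the 44 genes (12 at gene ends and 6 distal). Such regions were open on both days, so those lost or gained are not in this test. With limma on log2 scaled fragments and Benjamini-Hochberg adjustment over all 9136, 0 of the 18 were higher and 0 lower at day 1 at an adjusted p of 0.05, against 6.61% and 8.09% of all regions. Of shared gene-end regions in general, 3.39% were higher and 2.45% lower, against 0 and 0 of the 12. At an unadjusted p of 0.05, 5 of the 18 and 2410 of the 9136 passed. The median log2 difference, day 1 minus day 0, was 0.19 over the 18 and 0.01 over all. All day 0 libraries stood above all day 1 libraries in 5 of the 18, against 15.2% of all regions, and all day 1 libraries stood above in 3, against 14.2%.

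The strongest were at the Dusp6, Etv5 and Spry2 gene ends. Dusp6 had 51.9, 61.4 and 61.5 scaled fragments at day 1 and 63.6, 82.7 and 71.9 at day 0, with no overlap. Its log2 difference was −0.32 (SE 0.15, limma adjusted p = 0.169). At the Etv5 gene end it was −0.28 (SE 0.16, limma adjusted p = 0.296), also without overlap. Spry2, an inhibitor of receptor signalling, had 40.2, 49.7 and 42.7 scaled fragments at day 1 and 34.7, 34.7 and 30.5 at day 0. Its ranges were apart in the other direction, at a log2 difference of 0.41 (SE 0.17, limma adjusted p = 0.113). The largest difference was at the Etv4 gene end, with 24.6, 14.8 and 10.2 at day 1 and 26.1, 21.4 and 22.7 at day 0 (log2 −0.59, SE 0.25, limma adjusted p = 0.115). There the days overlapped through day 1 replicate 1, and the value depended on single libraries: it was −0.92 (SE 0.26, limma adjusted p = 0.0103) without day 1 replicate 1 and −0.24 (SE 0.24, limma adjusted p = 0.567) without day 1 replicate 3. In Spred2, the region 3.88 kb upstream had 29.8, 26.5 and 32.4 at day 1 and 14.8, 25.8 and 22.7 at day 0, a log2 difference of 0.52 (SE 0.22, limma adjusted p = 0.1). None of the 18 passed with all 6 libraries, and adjusted p ranged up to 0.932, at Fgfr1.

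Leaving out day 1 replicate 3, the library that stood apart, put 24 regions of these genes in the test, of which 3 were lower at day 1, against 10.7% of all 12469 regions in that fit, and 0 higher, against 6.08%. They were the Etv5 region described above (log2 −2.68, SE 0.22) and the Etv1 region at 8.66 kb (−1.24, SE 0.27). The last was a region inside Spred2, 44.5 kb from its far end (−1.14, SE 0.25, limma adjusted p = 1.01e-03). The Spred2 region had 13 and 9.52 scaled fragments in day 1 replicates 1 and 2, against 22.2, 31.0 and 23.6 at day 0. Leaving out day 1 replicate 1 put 20 regions in the test, of which 2, the Etv4 and Spred3 gene ends, were lower, against 8.93% of all, and 0 higher, against 6.35%. The Etv5 and Etv1 regions had been chosen as day 0 only in the same libraries. Their passing here is therefore not independent of that count and lends it no support, and no adjusted p is given for them. These and the Spred2 region entered the fit only because day 1 replicate 3, which had no peak there, was left out.

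**Figure D4:**
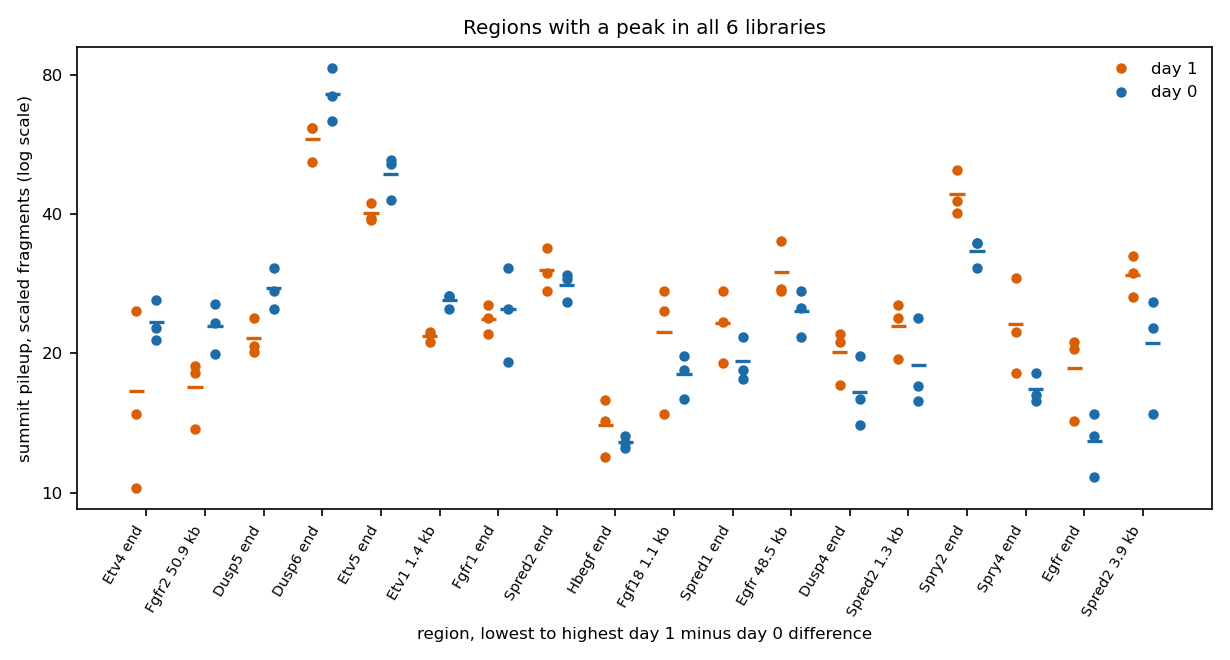
Summit pileup in scaled fragments (vertical axis, log scale) of the 18 regions with a peak in all 6 libraries, with day 1 in orange left of day 0 in blue, 1 point per library and bars at the means. Regions run from the lowest to the highest day 1 minus day 0 difference. At gene ends, Dusp6, Etv5 and Dusp5 have their day 1 points below the day 0 points and Spry2 above. Among distal regions, Etv1 at 1.4 kb and Fgfr2 at 50.9 kb have them below. Spred2 at 3.9 kb and Egfr at 48.5 kb have them above. No region passed the adjusted threshold.

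Other genes of the route, a list of 53 adaptors, kinases, coreceptors, ligands and early response genes, gave a measure beside the 44. They had a gene-end peak at 29, 35 and 24 genes at day 1 and 39, 35 and 35 at day 0, with 61, 57 and 27 distal peaks at day 1 and 193, 153 and 144 at day 0. In equal lists 9 of their 110 regions were day 0 only, against 9.11% of all regions, and 7 day 1 only, against 5.71%. The deposited lists held more regions of these genes. There 65 were day 0 only, 21.6% of their deposited regions, against 17.5% of all, and 0 were day 1 only, against 0.607%. No test of the 44 against these was made.

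The 1 kb limit lay between a Spry1 region at 0.994 kb and the Fgf1 region at 1.09 kb, and the 100 kb limit between regions 99.1 kb from Spred1 and 100.7 kb from Spred2.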

How the data were processed

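ATAC-seq peak lists of 6 libraries were used. Peaks were called per library with MACS2 2.2.7.1 in paired-end mode, without a control library, at a q cutoff of 0.05 and with a local background over 10000 bp, per the file headers. The submitters' processing notes also name HOMER 4.11, DiffBind 3.8.4, deepTools 3.5.1, SAMtools 1.15.1, Bowtie2 2.4.4 and Trim Galore 0.6.7, without their roles, and the mm10 build. The deposited pileup is the signal at the summit in whole fragments, not scaled to depth. The authors' −log10 p and −log10 q values and their fold enrichment, a ratio, compare it with background around the peak in that library, and per the file headers the length is the peak's width in bp. Depth was 4919755 to 11011889 fragments. All values are the authors' own per peak.

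From these, peaks on the assembled nuclear chromosomes were assigned to coding genes of the GRCm38 gene table, merged into regions and cut to equal lists. Size factors were the median ratio over regions with a peak in all 6 libraries. Shared regions were tested with limma 3.58.1 (R 4.3.3, trend, Benjamini-Hochberg, threshold 0.05), and presence was not tested, since an exact two-sided permutation test of 3 against 3 cannot go below 0.1. The counting and the limma fit were tested on simulated data. The 44 genes, the other lists and the alternatives were chosen with earlier results of these data known. Values per library are given for genes with a day-only region in equal lists, genes whose number of libraries with a gene-end peak differed by at least 2 between days, genes past the limma threshold, and the gene with the most regions in each of 8 role groups. Spred3, Etv4, Fgfr1 and the shared regions of other members are named outside that rule. A motif search in distal regions needs a genome, which was not used here.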

Additional observations from a re-analysis of the deposited data

How the results depend on the processing

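The larger results depended on the list. For members with a gene-end peak, the day 1 minus day 0 difference of the mean was 4.33 in equal lists, −5.33 in deposited lists, 7.67 ranked by fold enrichment, 2.67 at −log10 q of at least 5, 0.667 in lists divided by 2 and 2.67 with a 500 bp window. For gene-end peaks it was 4.67 in equal lists, then −8.33, 8, 3, 0.667 and 2.67 under the same settings, and 6 with a 2000 bp window. For distal peaks it was −8, and −74.3 in deposited lists. Day 1 only regions numbered 5, against 1 in deposited lists, 3 at −log10 q of at least 5 and 1 in lists divided by 2. Day 0 only regions numbered 11, against 41 in deposited lists and 5 in lists divided by 2. Other alternatives were chosen after seeing the data. Without day 1 replicate 3, in longer lists, there were 10 day 1 only and 16 day 0 only regions. These kept 2 of the 5 day 1 only and 6 of the 11 day 0 only regions named above, and neither of those in Etv1. When even the weakest peak on the opposite day counted, 1 day 1 only and 6 day 0 only regions were left. The difference was −4.33 members when peaks near any member end counted in the deposited lists. Leaving out each library in turn gave 3.5 to 5 members, 4 to 5.5 gene-end peaks, −10 to −5 distal peaks, 5 to 6 day 1 only and 11 to 14 day 0 only regions.

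In limma, 604 of all regions were higher and 739 lower. Scaling by the fragment total gave 30 and 48 and shifted the median of all regions to −0.15, a mean pileup of at least 20 gave 321 higher, and −log10 q of at least 5 gave 389 and 454. Leaving out a library gave 423 to 758 higher and 542 to 1334 lower, and among the members 0 higher and 0 to 3 lower, with 2 lower without day 1 replicate 1 (the Etv4 and Spred3 gene ends) and 3 without day 1 replicate 3. No other alternative called a member. The direction of Fgfr1, Hbegf and the Spred2 gene end changed under at least 1 alternative. Replicate numbers did not pair the libraries (correlations −0.036, 0.054 and 0.008), and with the number as a block 653 regions were higher and 782 lower, none of them a member's. The cause of these changes was not tested. The day 1 libraries held fewer fragments than the day 0 ones, and the part of depth in the absence of weak peaks at day 1 was not tested.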
